A study of Mus musculus with 3 samples.

Results

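Collagen chain genes were examined in the distal colon of mice with and without dextran sulfate sodium (DSS) colitis, a chemical injury of the colonic epithelium. They were taken as all genes on the array whose single symbol has the form Col, number, a, number, which gave 44 genes (46 probe sets) out of 19938 genes with a single symbol. By class, 11 encode fibrillar chains, 6 encode the type IV chains of basement membranes and 27 encode other chains. Expression had been measured on 3 arrays, 1 per group, with RNA pooled from 6 IL-4Rα-/- colitis mice, 3 wild-type (WT) colitis mice and 4 WT normal mice. All were male BALB/c littermates of 10 to 12 weeks, and the knockout was the germline Il4ra tm1Sz allele, which removes the receptor subunit for IL-4 and IL-13 from every cell. The colitis groups drank 3% DSS for 7 days, the normal group drank water, and tissue was taken on day 7. By the labels, the disease activity index of the pooled mice was 0 to 3 in IL-4Rα-/- colitis (median 1), 3 to 4 in WT colitis (median 4) and 0 in WT normal, and the colons were 8.2 to 11.3 cm long in IL-4Rα-/- colitis, 7.8 to 8.2 cm in WT colitis and 10.5 to 12.6 cm in WT normal. Because each group is 1 pool on 1 array, a difference between groups has no error and no p-value, and the size rule used below is a difference of more than 2-fold, that is more than 1 on the log2 scale.

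Collagens are triple-helical proteins of the extracellular matrix. Fibrillar collagens (types I, III and V among them) form the tensile fibres of the lamina propria and submucosa, type IV forms the sheet under the epithelium and around vessels and muscle cells, and type VI forms fine filaments between the fibres and the cells. In the gut they are made largely by fibroblasts, muscle cells and, for type IV, also by endothelial and epithelial cells. Chains of the triple helix are encoded by separate genes, and several of these genes lie side by side in the genome.

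The sequences before the transcription starts are shown for Col18a1 and, over a short stretch, for Col4a2, since these genes and Col4a1, the neighbour of Col4a2, differed most between the arrays, and for Col1a2 as a fibrillar chain. They come from RefSeq (GRCm38.p6), are written 5′ to 3′ on the strand of the gene, and capitals mark a CCAAT box (CCAAT) or a GC box (GGGCGG) on either strand. The 250 bases before the outer annotated start of Col18a1 (chr10:77166531-77166780, minus strand) hold a CCAAT box and 3 GC boxes, and those before the inner start (chr10:77113706-77113955, minus strand) hold neither.
Col18a1, outer start: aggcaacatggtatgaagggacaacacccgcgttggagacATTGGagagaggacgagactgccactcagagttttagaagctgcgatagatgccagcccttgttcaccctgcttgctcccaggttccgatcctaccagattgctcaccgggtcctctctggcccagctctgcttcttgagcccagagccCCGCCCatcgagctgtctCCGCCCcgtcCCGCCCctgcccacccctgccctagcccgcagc
Col18a1, inner start: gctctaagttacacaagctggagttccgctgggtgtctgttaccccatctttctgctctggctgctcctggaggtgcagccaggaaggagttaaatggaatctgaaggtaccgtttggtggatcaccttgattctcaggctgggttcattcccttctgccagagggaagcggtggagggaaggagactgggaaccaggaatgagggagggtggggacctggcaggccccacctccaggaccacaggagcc
The window of Col3a1, another fibrillar chain, holds neither a CCAAT box nor a GC box and is not printed. The window of Col1a2 (chr6:4505368-4505617, plus strand) holds a CCAAT box and 2 GC boxes.
Col1a2: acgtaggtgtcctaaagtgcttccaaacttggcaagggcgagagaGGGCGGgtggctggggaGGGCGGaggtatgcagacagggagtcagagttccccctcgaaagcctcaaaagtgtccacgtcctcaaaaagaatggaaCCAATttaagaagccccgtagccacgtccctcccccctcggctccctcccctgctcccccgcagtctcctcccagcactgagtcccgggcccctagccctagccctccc
Col4a1 and Col4a2 are transcribed in opposite directions, and their annotated starts lie 21 bases apart (chromosome 8, positions 11312826 for Col4a1 on the minus strand and 11312805 for Col4a2 on the plus strand). Since each gene is transcribed through the window before the start of the other, only 30 bases around a CCAAT box before the Col4a2 start (chr8:11312761-11312790, plus strand) are given. They lie after the start of Col4a1.
Col4a2: ccgaggagctccCCAATttgttggcgctgc

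Of the 35 collagen genes with such a window, 21 had a GC box in at least 1 window and 13 a CCAAT box. Counted by window, a GC box stood in 22 of 38 collagen windows (57.9%) and in 32.7% of the 32851 windows in the whole table, whereas a CCAAT box stood in 34.2% and 33.8%. A TATA box (TATAAA) was found in 13.2% of the collagen windows and 12.4% of all windows, and an AP-1 site (TGACTCA) in 2.63% and 4.46%. Both strands were searched for each of the 4 motifs, CCAAT and GC boxes did not overlap in the windows shown, and a match describes the letters only.

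The arrays carry a feature that bears on all differences below. Of the 44 collagen genes, 19 (43.2%) had the same value to 2 decimals on all 3 arrays, and so did 45.8% of all genes. Another 8 collagen genes (Col4a1, Col4a2, Col5a2, Col5a3, Col6a5, Col12a1, Col17a1 and Col18a1) had equal values in IL-4Rα-/- colitis and WT normal but not in WT colitis (18.2%, against 20.0% of all genes), 4 were equal in both WT groups only (6.48% of all genes), and 0 were equal in both colitis groups only (6.52% of all genes). Identical values thus made up a similar share of all genes and of the collagens. How the values were summarised is not stated in the methods or labels, so an equal value cannot be read as equal RNA. The median signal of all probe sets was 4.11 in IL-4Rα-/- colitis, 4.18 in WT colitis and 4.11 in WT normal. As a guide to background, the 95th percentile of 1205 olfactory and vomeronasal receptor probe sets was 3.50, and a log2 signal below 4 is called dim here. Il4ra itself had 4.76 in IL-4Rα-/- colitis, 6.63 in WT colitis and 5.69 in WT normal, lowest in the knockout. Ctrb1, pancreatic chymotrypsinogen, had 3.03 in IL-4Rα-/- colitis, 3.49 in WT colitis and 10.55 in WT normal, a high signal in WT normal only, and its part in the differences from WT normal was not tested.

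**Figure D1:**
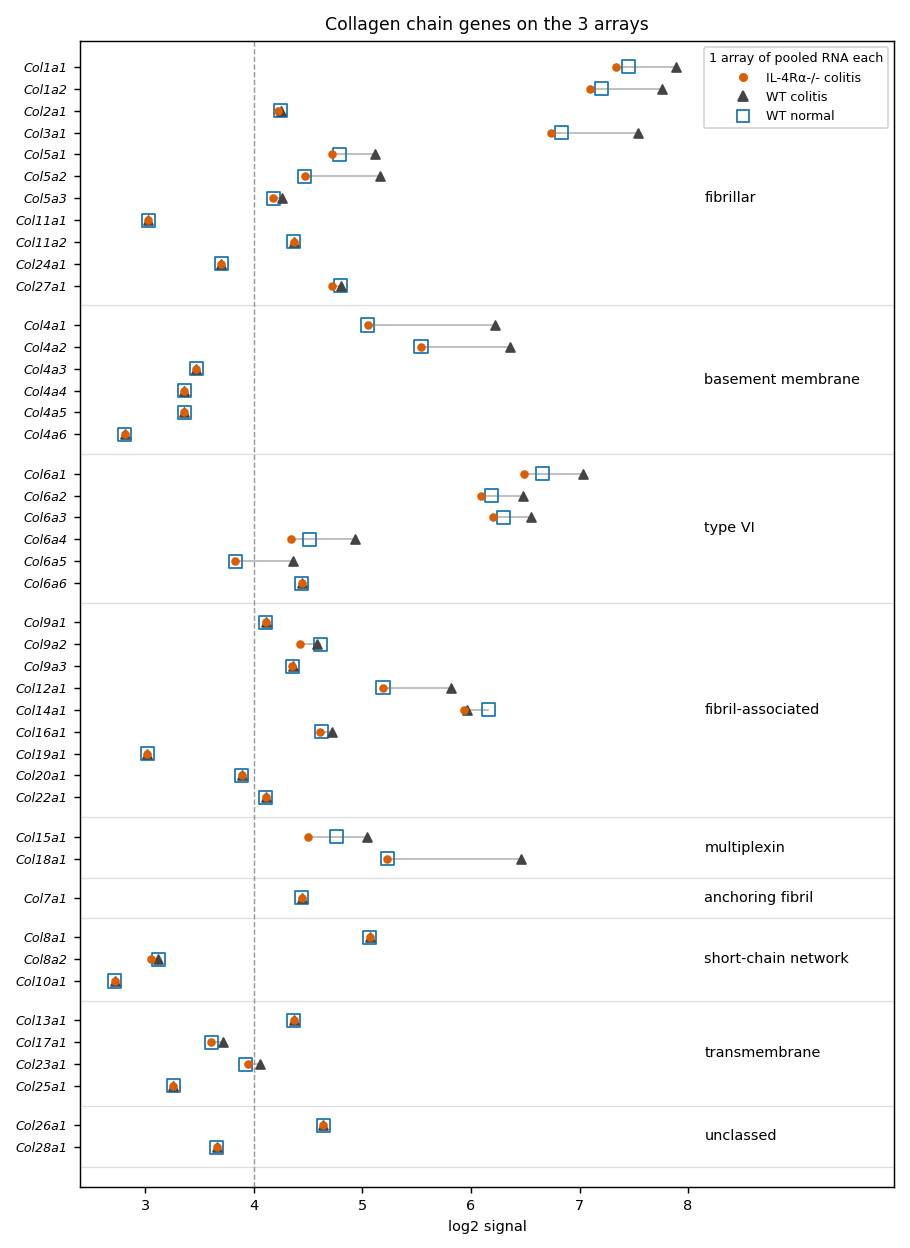
Log2 signal (x axis) of each of the 44 collagen genes (rows, grouped by class) in IL-4Rα-/- colitis (filled circles), WT colitis (triangles) and WT normal (open squares), 1 array per group; the dashed line marks the log2 signal of 4 below which a gene is called dim. Triangles lie to the right of both other symbols for Col4a1, Col4a2, Col18a1, Col1a1, Col1a2, Col3a1, Col6a1, Col6a2, Col6a3 and Col6a4, whereas Col4a3, Col4a4, Col4a5 and Col4a6 lie left of the line with all symbols on top of each other.

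Most collagen classes were represented above background. A mean log2 signal of 4 or more over the arrays was found for 30 of the 44 genes (68.2%, against 55.6% of all genes), namely 9 of 11 fibrillar, 2 of 6 type IV and 19 of 27 other genes. Among these, Col6a5 reached that mean only through WT colitis. The other 14 genes had a mean below 4, and 13 genes (29.5%, against 43.4% of all genes) were dim on every array. These were Col4a3, Col4a4, Col4a5 and Col4a6 of type IV, Col11a1 and Col24a1 among the fibrillar chains, and Col10a1, Col17a1, Col19a1, Col20a1, Col25a1, Col28a1 and Col8a2. Their differences ranged from 0.00 to 0.11 between WT colitis and WT normal, and nothing can be said of them at this signal. Col23a1, with 3.95 in IL-4Rα-/- colitis, 4.06 in WT colitis and 3.92 in WT normal, was at the limit.

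Between WT colitis and WT normal, which asks what DSS did in WT colon, 2 of the 44 collagen genes were more than 2-fold above WT normal in WT colitis (4.55%, against 1.16% of all genes) and 0 were more than 2-fold below it (0.456% of all genes). The 2 genes were Col18a1 and Col4a1, which encode collagens of the basement membrane zone, and with 32 added to each linear signal neither passed (0.79 for Col18a1 and 0.71 for Col4a1). At 1.5-fold, the genes Col4a2, Col3a1, Col5a2 and Col12a1 were added, making 6 of 44 (13.6%, against 4.11% of all genes), and 0 genes were lower (1.08% of all genes). At 4-fold, the threshold of the study, 0 collagen genes passed either way (0.181% of all genes higher and 0.140% lower). The median difference of the 44 genes was 0.00, as it was for all genes. It was 0.08 for the fibrillar class, 0.00 for the type IV class and 0.00 for the other class. With genes of a mean log2 signal below 4 left out, it was 0.33 for the fibrillar class and 0.99 for the 2 type IV genes left. It was 0.00 for the other class and 0.17 over the collagen genes, against 0.00 for all genes so filtered. The 0.17 includes Col6a5, which passed the filter only through WT colitis.

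Between IL-4Rα-/- colitis and WT colitis, which asks how the colon differed without the receptor, the same limit was passed by 2 of 44 genes, both lower in IL-4Rα-/- colitis (0.908% of all genes), and 0 were higher (0.271% of all genes). They were again Col18a1 (-0.79 with 32 added to each linear signal) and Col4a1 (-0.71 with 32 added), and since the WT colitis array enters both comparisons, the second is no independent observation. At 1.5-fold, 8 genes were lower (18.2%, against 3.33% of all genes) and 0 higher (0.687% of all genes). Those added were Col4a2, Col3a1, Col5a2, Col1a2, Col12a1 and Col6a4, and 0 genes passed 4-fold (0.0451% of all genes higher and 0.150% lower). The median difference was -0.05 over the 44 genes, -0.08 for the fibrillar class, 0.00 for type IV and -0.02 for the others, against 0.00 for all genes. With genes of a mean log2 signal below 4 left out, it was -0.25 over the collagen genes, -0.40 for the fibrillar class and -0.99 for the 2 type IV genes left. It was -0.11 for the other class, and 0.00 for all genes so filtered. The -0.25 and the -0.11 include Col6a5 (3.83 in IL-4Rα-/- colitis, 4.36 in WT colitis and 3.83 in WT normal). That gene passed the filter only through WT colitis, where it was high, so both medians lean on the filter.

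Between IL-4Rα-/- colitis and WT normal, 0 of 44 collagen genes were more than 2-fold higher (0.186% of all genes) and 0 lower (0.336% of all genes), and 0 passed 1.5-fold either way (0.792% and 0.813% of all genes) or 4-fold (0.0251% and 0.160%). The differences lay between -0.26 for Col15a1 and 0.03 for Col23a1. WT colitis had the highest of the 3 signals for 19 of the 44 genes (43.2%, against 30.4% of all genes). With no untreated IL-4Rα-/- array analysed here, genotype and the lower disease activity of the IL-4Rα-/- pool cannot be told apart.

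**Figure D2:**
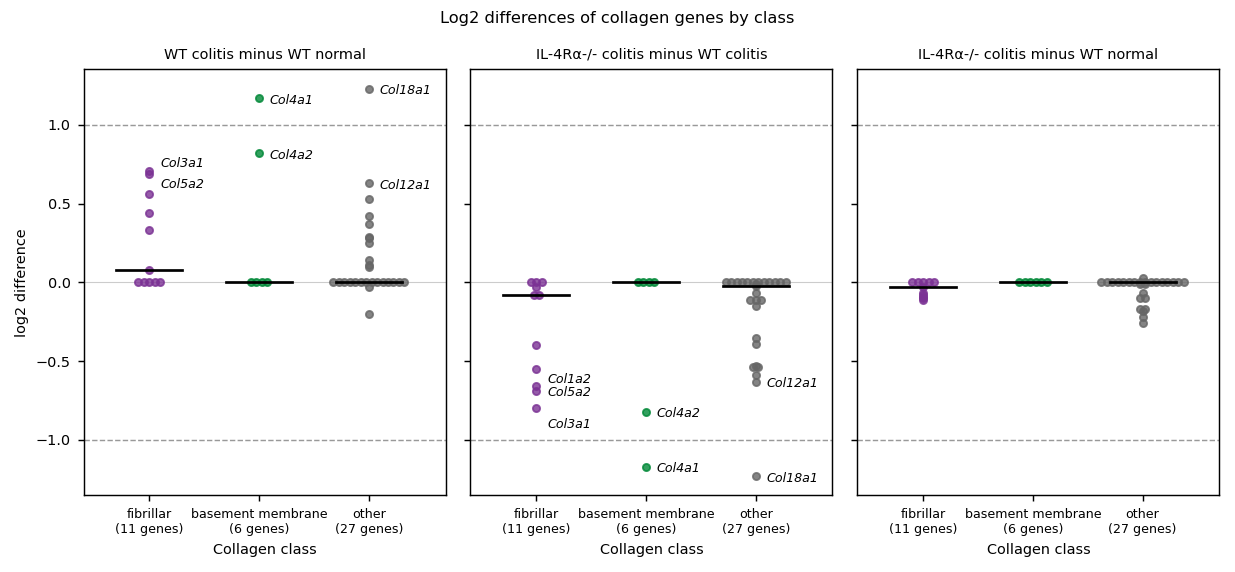
Log2 difference (y axis) of each collagen gene by class in the 3 comparisons, 1 point per gene, with a black bar at the class median and dashed lines at 1 and -1, the 2-fold limit. Col18a1 (1.23 and -1.23) and Col4a1 (1.17 and -1.17) lie beyond the limit in the comparisons that use the WT colitis array, and all 44 points lie between -0.26 and 0.03 in the third.

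Type IV collagen is the network-forming collagen of all basement membranes, in which α1 and α2 chains assemble into one heterotrimer. Col4a1 had a log2 signal of 5.05 in IL-4Rα-/- colitis, 6.22 in WT colitis and 5.05 in WT normal, so that it was 2.25-fold higher in WT colitis than in either other group. Its partner Col4a2 had 5.54 in IL-4Rα-/- colitis, 6.36 in WT colitis and 5.54 in WT normal, or 1.77-fold. The 2 genes, which share the start region shown above, thus had the same order of arrays, with WT colitis alone standing high. Of the genes past the 2-fold limit Col4a1 was nearest to it with a difference of 1.17, and of those short of it Col4a2 was nearest with 0.82. The other neighbouring pairs, Col4a3 with Col4a4 and Col4a5 with Col4a6, encode the remaining type IV chains, and all 4 were dim and equal on every array, between 2.81 for Col4a6 and 3.47 for Col4a3.

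Multiplexins are collagens with an interrupted helix that sit at the outer face of basement membranes. Col18a1, whose C-terminal fragment is endostatin, had 5.23 in IL-4Rα-/- colitis, 6.46 in WT colitis and 5.23 in WT normal and was 2.35-fold higher in WT colitis than in the other groups. Its relative Col15a1 had 4.50 in IL-4Rα-/- colitis, 5.04 in WT colitis and 4.76 in WT normal. Here WT colitis was again highest, 1.45-fold above IL-4Rα-/- colitis and 1.21-fold above WT normal, and IL-4Rα-/- colitis was lowest. Col7a1, the chain of the fibrils that anchor the epithelial basement membrane, had 4.44 on each array. With both multiplexins and Col7a1 counted among the basement membrane genes, the class median stayed at 0.00 in each comparison. This outcome was fixed, since Col4a3, Col4a4, Col4a5, Col4a6 and Col7a1, equal on all arrays, made up most of that class. The median therefore says nothing of its other members.

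Among the 11 fibrillar chains, 6 were above WT normal by some amount in WT colitis (54.5%, against 35.8% of all genes). The count below WT normal was 0 (12.0% of all genes). Of the 6, Col5a3 differed by only 0.08, under the limit of 0.1 used below for directions. Col1a1, the α1 chain of type I collagen, had a log2 signal of 7.34 in IL-4Rα-/- colitis, 7.89 in WT colitis and 7.45 in WT normal. Col1a2, its α2 chain, had 7.10 in IL-4Rα-/- colitis, 7.76 in WT colitis and 7.20 in WT normal. Col3a1, the chain of type III collagen, which is laid down early in repair, had 6.74 in IL-4Rα-/- colitis, 7.54 in WT colitis and 6.83 in WT normal. For these 3 genes IL-4Rα-/- colitis was lowest, by 1.46-fold for Col1a1, 1.58-fold for Col1a2 and 1.74-fold for Col3a1 below WT colitis, and WT colitis was highest, by 1.36-fold, 1.47-fold and 1.64-fold over WT normal in the same order of genes. Against WT normal, IL-4Rα-/- colitis differed by -0.11 for Col1a1, -0.10 for Col1a2 and -0.09 for Col3a1 on the log2 scale. Type V collagen co-assembles with type I and sets fibril width. Its chain Col5a2, the gene next to Col3a1 in the genome, had 4.47 in IL-4Rα-/- colitis, 5.16 in WT colitis and 4.47 in WT normal, and Col5a1 had 4.72 in IL-4Rα-/- colitis, 5.12 in WT colitis and 4.79 in WT normal. Col5a3, with 4.18 in IL-4Rα-/- colitis, 4.26 in WT colitis and 4.18 in WT normal, barely differed. The cartilage chains Col2a1 and Col11a2 and the chain Col27a1 differed by at most 0.08 in each comparison.

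Type VI collagen forms beaded filaments, with Col6a1, Col6a2 and Col6a3 encoding the chains of the common heterotrimer. Col6a1 had 6.49 in IL-4Rα-/- colitis, 7.03 in WT colitis and 6.66 in WT normal. Col6a2, its neighbour, had 6.09 in IL-4Rα-/- colitis, 6.48 in WT colitis and 6.19 in WT normal, and Col6a3 had 6.20 in IL-4Rα-/- colitis, 6.55 in WT colitis and 6.30 in WT normal. The chains kept one order across the arrays, WT colitis above WT normal above IL-4Rα-/- colitis, with differences of 0.25 to 0.37 for WT colitis minus WT normal and of -0.54 to -0.35 for IL-4Rα-/- colitis minus WT colitis. Col6a4, an alternative chain, had 4.34 in IL-4Rα-/- colitis, 4.93 in WT colitis and 4.51 in WT normal in the same order. Over the 6 type VI genes the median difference was 0.33 between WT colitis and WT normal, -0.46 between IL-4Rα-/- colitis and WT colitis, and -0.10 when IL-4Rα-/- colitis was set against WT normal. Col6a5 was dim in both other groups and differed on 1 of its probe sets (3.83 in IL-4Rα-/- colitis, 4.36 in WT colitis and 3.83 in WT normal) and was 3.83 throughout on the other, and Col6a6 was equal at 4.44.

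Fibril-associated collagens decorate the surface of collagen fibrils and did not share one pattern. Col12a1 had 5.19 in IL-4Rα-/- colitis, 5.82 in WT colitis and 5.19 in WT normal, 1.55-fold higher in WT colitis than in the other groups. Col14a1, which has a similar domain plan, had 5.94 in IL-4Rα-/- colitis, 5.96 in WT colitis and 6.16 in WT normal. Its signal was thus highest in WT normal, and it was the gene with the lowest difference between WT colitis and WT normal (-0.20) among all 44. Col16a1, Col9a2 and Col9a3 differed by no more than 0.18 in any comparison, and Col9a1 and Col22a1 were equal on each array. Of the remaining genes, the network-forming chain Col8a1, known from vessel walls, had 5.07 on all arrays.

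Directions were also counted for differences larger than 0.1 on the log2 scale, a limit chosen after the values had been seen because it is wider than the 0.07 by which array medians differed. By this count, 17 of 44 collagen genes were above WT normal in WT colitis (38.6%, against 24.7% of all genes) and 1 was lower (2.27%, against 7.03%). In IL-4Rα-/- colitis against WT colitis, 0 were higher (6.02% of all genes) and 19 lower (43.2%, against 24.7%). In IL-4Rα-/- colitis against WT normal, 0 were higher (9.98% of all genes) and 6 lower (13.6%, against 9.42%). With each array centred on its median, the splits were 15 higher and 1 lower, 0 and 15, and 0 and 6, and with quantile normalization they were 15 and 4, 0 and 15, and 0 and 9. Under centring, genes with equal values differ by 0.07, so differences under 0.1 are not read as directions. Over all genes, the split between WT colitis and WT normal was 19.0% higher and 10.3% lower with centring, but 19.0% higher and 20.2% lower with quantile normalization. Between IL-4Rα-/- colitis and WT colitis it was 9.01% higher and 18.5% lower with centring and 12.0% and 18.6% with quantile normalization. Between IL-4Rα-/- colitis and WT normal it was 9.98% and 9.42% with centring and 9.93% and 9.79% with quantile normalization.

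**Figure D3:**
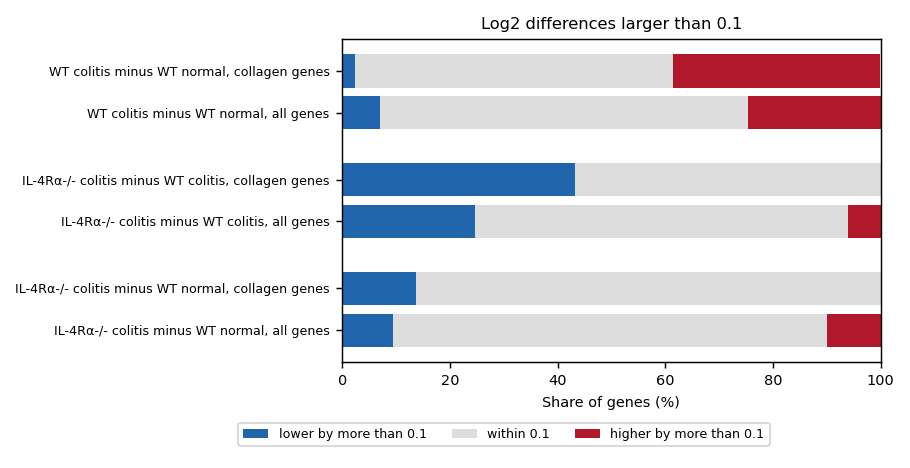
Share of genes (x axis, %) whose log2 difference was lower by more than 0.1, within 0.1 or higher by more than 0.1, for the 44 collagen genes and all 19938 genes in each comparison. In IL-4Rα-/- colitis against WT colitis, 43.2% of collagen genes and 24.7% of all genes were lower, and 0 of the collagen genes were higher.

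Genes that build, bind and cut collagen were set beside the chains. Counts past 2-fold in these lists stand against 0.908% of all genes lower and 0.271% higher in IL-4Rα-/- colitis against WT colitis, and 1.16% higher and 0.456% lower in WT colitis against WT normal, so that a count of 0 in a short list is near the share of all genes. Of 19 genes of chain modification and folding, 0 passed 2-fold in either comparison with WT colitis, with medians of -0.21 between IL-4Rα-/- colitis and WT colitis and 0.19 between WT colitis and WT normal. Among the genes that were not dim on all arrays, the largest differences were those of the hydroxylases Plod2 (5.27 in IL-4Rα-/- colitis, 6.10 in WT colitis, 5.27 in WT normal) and P3h2 (5.61 in IL-4Rα-/- colitis, 6.50 in WT colitis and 5.74 in WT normal) and of the channel Tmem38b (5.34 in IL-4Rα-/- colitis, 5.99 in WT colitis and 5.18 in WT normal). Serpinh1, the collagen chaperone HSP47, had 5.52 in IL-4Rα-/- colitis, 5.52 in WT colitis and 5.63 in WT normal and so was not highest in WT colitis. Among 7 genes of propeptide cleavage, 0 passed 2-fold, and Pcolce, an enhancer of that cleavage, had 7.00 in IL-4Rα-/- colitis, 7.45 in WT colitis and 7.00 in WT normal. By contrast Lox, lysyl oxidase, which crosslinks collagen and elastin, was dim in IL-4Rα-/- colitis (3.51) and WT normal (3.21) and had 5.55 in WT colitis, at least 2.93-fold higher than in either. It was the 1 of 4 crosslinking genes past 2-fold (25.0%, against 1.16% of all genes higher in WT colitis and 0.908% lower in IL-4Rα-/- colitis), and Loxl1 had 5.51 in IL-4Rα-/- colitis, 6.13 in WT colitis and 5.54 in WT normal.

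Of 8 genes for collagen-degrading enzymes, 3 were more than 2-fold lower in IL-4Rα-/- colitis against WT colitis (37.5%, against 0.777% of all genes) and 0 higher (0.251%), and 3 lay more than 2-fold above WT normal in WT colitis (37.5%, against 1.00% of all genes) and 0 below it (0.411%), with signals below 4 raised to 4, a count chosen after the values had been seen. The 3 genes were Mmp13, Mmp14 and Mmp2 in both comparisons, which share the WT colitis array, and the values as deposited added Mmp9. Mmp13, an interstitial collagenase, had 5.43 in IL-4Rα-/- colitis, 7.70 in WT colitis and 4.66 in WT normal. Mmp14, a membrane-bound collagenase, had 6.46 in IL-4Rα-/- colitis, 7.67 in WT colitis and 6.46 in WT normal. Mmp2, a gelatinase that Mmp14 activates, had 7.44 in IL-4Rα-/- colitis, 8.73 in WT colitis and 7.44 in WT normal, and Mmp9, another gelatinase, had 3.50 in IL-4Rα-/- colitis, 4.58 in WT colitis and 3.45 in WT normal. WT colitis was the high array for each, and the difference of Mmp13 (8.22-fold over WT normal) was wider than that of each collagen chain. Mmp9 was dim in IL-4Rα-/- colitis and WT normal, so its fold is at least 1.49.

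The 12 fibril-binding proteoglycans and glycoproteins had a median difference of 0.53 between WT colitis and WT normal and of -0.53 between IL-4Rα-/- colitis and WT colitis. Dcn, decorin, which coats type I fibrils, had 9.49 in IL-4Rα-/- colitis, 10.76 in WT colitis and 9.49 in WT normal and was the 1 member more than 2-fold higher in WT colitis. Thbs1, a thrombospondin, had 7.66 in IL-4Rα-/- colitis, 9.36 in WT colitis and 8.64 in WT normal, and with Dcn it made up the 2 members more than 2-fold below WT colitis in IL-4Rα-/- colitis. Thbs1 was also 1.97-fold below WT normal in IL-4Rα-/- colitis. Fn1, fibronectin, had 9.40 in IL-4Rα-/- colitis, 10.36 in WT colitis and 9.58 in WT normal, and Sparc, a collagen-binding protein, 9.89 in IL-4Rα-/- colitis, 10.81 in WT colitis and 10.18 in WT normal. Lum, lumican, and Ogn, osteoglycin, were equal on all arrays (5.47 and 7.38).

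Of 15 partners of type IV collagen in the basement membrane, 13 were highest in WT colitis (86.7%, against 30.4% of all genes). These 13 exceeded WT normal by some amount in WT colitis (35.8% of all genes) and 0 fell short of it (12.0% of all genes), with a median of 0.56, and the median between IL-4Rα-/- colitis and WT colitis was -0.56. Nid1, nidogen, which links laminin to type IV collagen, had 6.40 in IL-4Rα-/- colitis, 7.60 in WT colitis and 6.60 in WT normal. Lama4, a laminin chain of vessel basement membranes, had 5.43 in IL-4Rα-/- colitis, 6.38 in WT colitis and 5.35 in WT normal, and Lamc1, the laminin γ1 chain, had 6.64 in IL-4Rα-/- colitis, 7.48 in WT colitis and 6.64 in WT normal. Pxdn, peroxidasin, which crosslinks type IV collagen, had 5.29 in IL-4Rα-/- colitis, 6.17 in WT colitis and 5.29 in WT normal. At 2-fold, however, only Lama4 (2.04-fold, WT colitis over WT normal) and Nid1 (2.30-fold below WT colitis in IL-4Rα-/- colitis) passed. Among 10 collagen receptors, 0 passed 2-fold with signals below 4 raised to 4. By that rule 1.00% of all genes were higher in WT colitis against WT normal. In IL-4Rα-/- colitis against WT colitis, 0.777% of all genes were lower. With the values as deposited, 1 of the 10 passed, Mrc2, with 1.05 for WT colitis minus WT normal (1.16% of all genes higher). Mrc2, an endocytic receptor for collagen, had 3.83 in IL-4Rα-/- colitis, 4.76 in WT colitis and 3.71 in WT normal (at least 1.69-fold, since it was dim in both other groups), and Ddr2, a receptor kinase for fibrillar collagen, had 6.86 in IL-4Rα-/- colitis, 7.45 in WT colitis and 6.86 in WT normal. Of 8 TGF-β ligands and targets, 0 passed 2-fold, with medians of -0.32 in IL-4Rα-/- colitis against WT colitis and 0.18 in WT colitis against WT normal. A count of 0 in so short a list is near the share of all genes (0.908% lower and 1.16% higher in these comparisons). Ltbp1, which binds latent TGF-β in the matrix, had 5.55 in IL-4Rα-/- colitis, 6.38 in WT colitis and 5.55 in WT normal.

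**Figure D4:**
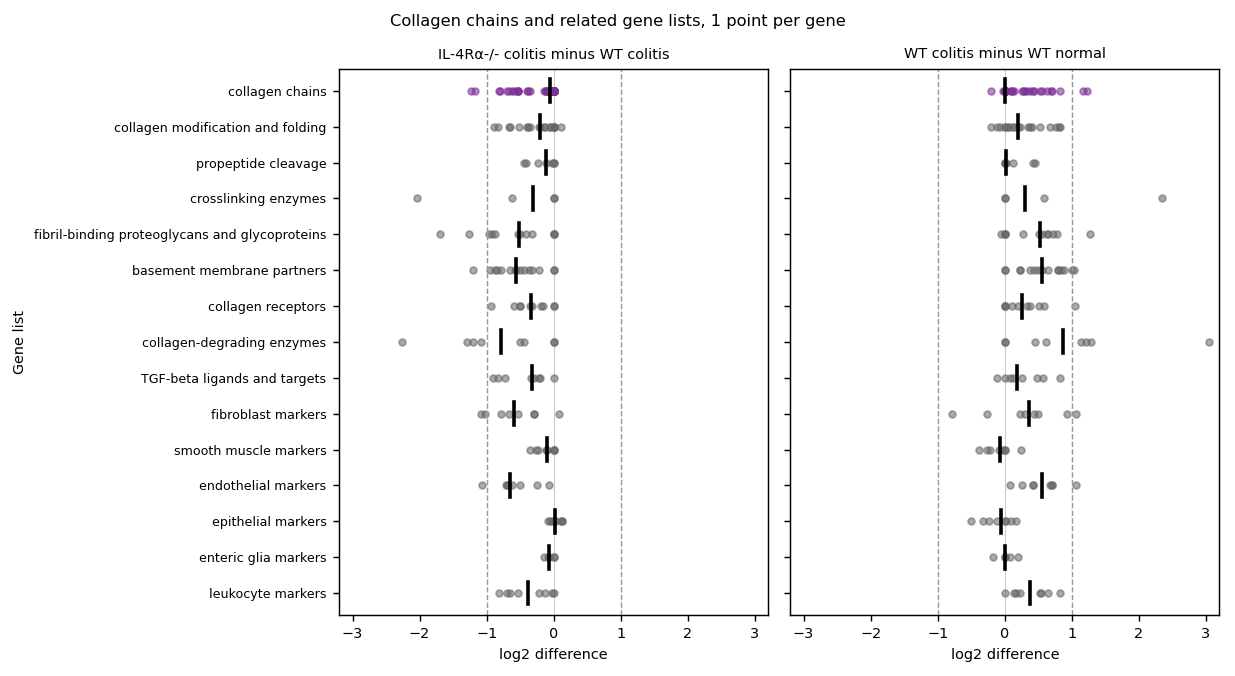
Log2 difference (x axis) of collagen chains and of related gene lists (rows), for IL-4Rα-/- colitis minus WT colitis (left) and WT colitis minus WT normal (right), 1 point per gene, with a black bar at the list median and dashed lines at the 2-fold limit. The lists of collagen-degrading enzymes (medians -0.79 and 0.87), basement membrane partners (-0.56 and 0.56) and endothelial markers (-0.65 and 0.55) lie off 0. So do fibroblast markers (-0.60 and 0.36), fibril-binding proteoglycans and glycoproteins (-0.53 and 0.53) and leukocyte markers (-0.38 and 0.37). Smooth muscle (-0.11 and -0.07) and epithelial (0.01 and -0.06) markers lie near 0.

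In these bulk samples, more cells of a collagen-producing type and more RNA per cell cannot be told apart, and marker levels differed between the arrays. Of 8 fibroblast markers, the log2 of the summed signal was 10.83 in IL-4Rα-/- colitis, 11.49 in WT colitis and 11.09 in WT normal, with Pdgfra at 6.48 in IL-4Rα-/- colitis, 7.51 in WT colitis and 6.45 in WT normal and Pdgfrb at 5.79 in IL-4Rα-/- colitis, 6.88 in WT colitis and 5.95 in WT normal. Of these markers 6 were highest in WT colitis (75.0%, against 30.4% of all genes), 1 of which, Pi16, was dim on every array. By contrast Mfap5 (4.94 in IL-4Rα-/- colitis, 4.86 in WT colitis and 5.65 in WT normal) and Gsn (7.76 in IL-4Rα-/- colitis, 8.05 in WT colitis and 8.32 in WT normal) were highest in WT normal. For 8 endothelial markers it was 8.33 in IL-4Rα-/- colitis, 8.96 in WT colitis and 8.36 in WT normal, with the cadherin Cdh5 at 5.64 in IL-4Rα-/- colitis, 6.71 in WT colitis and 5.65 in WT normal. The sum of 8 smooth muscle markers was 12.95 in IL-4Rα-/- colitis, 13.07 in WT colitis and 13.20 in WT normal, that of 8 epithelial markers 13.96 in IL-4Rα-/- colitis, 13.96 in WT colitis and 14.06 in WT normal and that of 8 leukocyte markers 10.13 in IL-4Rα-/- colitis, 10.69 in WT colitis and 10.21 in WT normal. Fibroblast, endothelial and leukocyte sums were thus highest in WT colitis, and the muscle and epithelial sums were highest in WT normal. Members did not all follow these sums. Against WT normal, WT colitis had 3 of 8 epithelial markers higher and 4 lower. Of 8 smooth muscle markers, 1 was higher and 5 lower (35.8% of all genes higher, 12.0% lower). Epcam (10.28 in IL-4Rα-/- colitis, 10.16 in WT colitis and 10.07 in WT normal) and Krt20 (10.14, 10.11 and 9.94 in the same order) were lowest in WT normal. Myh11 (9.62, 9.86 and 9.62 in that order) was highest in WT colitis. The sums are linear, so bright members weigh most, such as Vim (10.79 in WT colitis) for fibroblasts and Lyz2 (10.12 in WT colitis) for leukocytes. Of the leukocyte markers, Cd3e was equal in both colitis groups (5.85), and Adgre1 was equal in both WT groups (4.75). More than 2-fold above WT normal in WT colitis were Pdgfra and Cdh5, each 1 of 8 in its list (12.5%, against 1.16% of all genes). More than 2-fold below WT colitis in IL-4Rα-/- colitis were Pdgfra and Pdgfrb, 25.0% of the fibroblast markers. So was Cdh5, 12.5% of the endothelial markers, against 0.908% of all genes. The other fibroblast and endothelial markers and the leukocyte markers did not pass 2-fold. The part of these markers in the collagen differences was not tested. Epithelial and muscle markers had high signals on every array, as the label colon requires, while 4 of 5 enteric glia markers were dim.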

How the data were processed

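RNA of the distal colon was pooled within each group and hybridised by the authors to GeneChip Mouse Gene 1.0 ST arrays. Log2 signals of 28944 probe sets, rounded to 2 decimals, were deposited. The methods name GeneChip Analysis Suite Software and Transcriptome Analysis Console, and the labels describe a Cy3 labelling kit, but how probes were summarised and arrays normalized is not stated there. Symbols came from the platform annotation (21789 probe sets with 1 symbol, 1621 with several, 5534 with none), and 21698 were matched to RefSeq by gene number. Each gene was represented by its probe set of highest mean signal, and log2 differences were taken without further scaling. No test was run, because each group had 1 array, and the number of arrays limits the precision. Gene coordinates are not given for the array features, since no build is named for them.

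Folds with 1 signal below a log2 of 4 were computed with that signal raised to 4 and are given as "at least", and no fold is given with both below 4. All collagen genes past 2-fold, the 8 with the highest mean and their partner chains were named, with up to 4 members of each other list; Col12a1, Col15a1 and the other chains outside this rule, Serpinh1, Lum and Ogn were named after their values had been seen. Members, lists and rules were chosen with earlier results of these data known. Alternatives were quantile normalization, median centring, an offset of 32, a floor and a filter at a log2 of 4, the mean of probe sets, thresholds of 1.5-fold and 4-fold and a wider basement membrane class. The counting step was tested on simulated data. Python 3.11.15, numpy 2.4.6, pandas 2.3.3 and matplotlib 3.10.9 were used.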

Additional observations from a re-analysis of the deposited data

How the results depend on the processing

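The 2 genes more than 2-fold above WT normal in WT colitis became 6 at 1.5-fold, 0 at 4-fold and 0 with 32 added to each linear signal, and the 2 genes more than 2-fold below WT colitis in IL-4Rα-/- colitis became 8, 0 and 0. With the offset, which shrinks differences of low signals by construction, Col18a1 differed by 0.79 and -0.79 and Col4a1 by 0.71 and -0.71 in these comparisons. With genes of a mean log2 signal below 4 left out, the median between WT colitis and WT normal was 0.33 for fibrillar and 0.99 for type IV genes, and that between IL-4Rα-/- colitis and WT colitis was -0.25 over all collagen genes, -0.40 for fibrillar and -0.99 for type IV genes, of which 2 remained. For the other class, the filtered medians were 0.00 and -0.11 in these comparisons. The filter kept Col6a5 only through its signal in WT colitis, and that gene enters the -0.25 and the -0.11. The class medians with multiplexins and Col7a1 counted as basement membrane did not move. For the basement membrane class this was fixed in advance, because most of its members were equal on all arrays. No value followed under these alternatives changed sign while past the limit: 42 counts, 73 medians and 238 single-gene values stayed and 6, 5 and 14 moved. The single genes followed each had 1 probe set and a log2 signal of 4 or more on every array. The floor, the filter and the mean of probe sets could therefore not change them, and their unchanged values are no sign of stability. Nor could these settings change the 2-fold counts, because the genes past that limit, Col18a1 and Col4a1, were among the genes followed. Counts of 0 could not rise at 4-fold. Only Col6a5 and Col6a6 had more than 1 probe set, so the mean of probe sets could hardly change the medians. The unchanged counts and medians under such settings are no sign of stability either. All 14 single-gene values that moved did so with the offset. A median was counted as moved when it changed by more than 0.178, 0.148 or 0.0741, the robust spread of genes with unequal values in the 3 comparisons. Small medians could thus change sign and still count as stayed. Between IL-4Rα-/- colitis and WT colitis, the median over all collagen genes went from -0.05 to 0.03 with quantile normalization and 0.02 with centring. That of the other class went from -0.02 to 0.04 and 0.05. Centring and quantile normalization moved the median of all genes by 0.07 or less. No paired analysis was possible because each group had 1 array. Without replicate arrays, the error of these differences is unknown.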
